A study of Mus musculus with 6 samples.

Results

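The 35 genes described here make up an interferon response and antigen presentation module, chosen by name: 13 induced antiviral effectors, 2 cytosolic RNA sensors, 5 transcription factors, 6 receptor chains and receptor kinases, 3 immunoproteasome subunits and 6 genes of peptide loading and class I molecules. All 35 were among the 22322 genes of the deposited table. They were followed in wild-type (WT) mouse neural stem progenitor cells (NSPCs), which renew themselves and can form neurons and glia. One group was treated with PTN and the Control group with PBS, and both were collected at 24 h, with 3 libraries each. PTN, given in the labels only as an abbreviation, is read here as pleiotrophin, a secreted heparin-binding growth factor. The series title speaks of conditioned medium without further detail. No age, animal number, passage or PTN amount is given in the sources used here. Whether replicates were independent cultures or animals is not stated; p-values therefore reflect variation among these libraries alone, and part or all of it may be technical.

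Interferons are cytokines, and cells release those of type I on sensing viral nucleic acid. Type I interferons act through the IFNAR1 and IFNAR2 chains and the kinases TYK2 and JAK1, which activate a complex that includes STAT2 and IRF9. That complex binds the interferon-stimulated response element (ISRE) of antiviral genes such as the Ifit and Oas families. Interferon gamma acts through IFNGR1 and IFNGR2 and the gamma-activated site (GAS) of its target genes, and raises IRF1, the immunoproteasome and the class I pathway. Class I molecules present peptides, cut by the proteasome and carried into the endoplasmic reticulum by TAP, to cytotoxic T cells. Neural progenitors are not professional antigen-presenting cells, and class I levels in the developing nervous system are generally low.

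The libraries held between 19267764 and 26341745 expected counts, so that 1 CPM (a count scaled to the library's total) rests on about 19 to 26 counts. Transcripts of mitochondrial DNA took 4.47 to 7.47% of the counts in Control and 3.97 to 8.12% in PTN. Library PTN 3 stood apart in 4 Y-linked genes, which summed to 7.96 CPM there and to between 30.3 and 102 CPM in the other 5 libraries. The NSPC markers Nes, Sox2, Vim, Pax6, Fabp7, Msi1, Hes1, Hes5 and Prom1 were tested in full, and summed to between 5760 and 6580 CPM in Control and between 7520 and 8880 CPM in PTN. Vim, at 3380 to 3530 CPM in Control and 4980 to 5440 CPM in PTN, made up most of that sum, and of the 9 log2 fold changes 5 were above 0 and 4 below, with a median of 0.11.

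One gene of the module passed the test, and it rose. Ifngr2, which encodes the signalling chain of the interferon gamma receptor, was 1.59-fold higher in PTN (log2 fold change 0.66 ± 0.15 SE, n = 3 against 3, edgeR adjusted p = 0.0304). None of the antiviral effectors, sensors, transcription factors, immunoproteasome subunits, or peptide loading and class I genes passed. B2m, the light chain shared by all class I molecules, had the next smallest p of the module, at 1.52-fold and an adjusted p of 0.0653. Of the 35 genes, 33 had a count of 10 or more in 3 libraries, and the same 33 were tested. Thus 1 of 33 was called higher and 0 of 33 lower by edgeR's quasi-likelihood test, where 4.93% of all 13161 tested genes were called higher and 3.06% lower. DESeq2's Wald test called 2 higher, Ifngr2 and B2m, and 0 lower, and limma-voom called 1 higher and 0 lower. At an unadjusted p under 0.05 stood 4 of the 33, or 12.1%, with Ifngr2 and B2m higher and Usp18 and Stat2 lower, against 27.0% of all tested genes.

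The median log2 fold change of the tested genes of the module was 0.11, with 20 values above 0 and 13 below it. Over all tested genes the median was 0.03, and 52.5% of the values were above 0. The module's median had no stable sign: it lay at 0.28 without PTN 1, at -0.07 without PTN 2 and at -0.01 without PTN 3. Over the 33 genes, 4 had PTN values wholly above the Control values (Irf1, Ifngr1, Ifngr2 and B2m) and 2 had them wholly below (Ifi35 and Stat2). Over all tested genes, 15.7% lay wholly above and 17.1% wholly below. No log2 fold change of the module reached 1 in size, as 8.45% of all tested genes did. Only 20 of the 33 intervals of 95% lay wholly between -1 and 1, with log2 bounds rounded to 2 decimals. For the other 13 the rounded interval reached a 2-fold change in at least 1 direction. Among these, that of Ifngr2 ended at 2.00-fold, and that of Psmb9 began at 0.501, just inside 2-fold lower before rounding. In bulk RNA, fewer cells expressing a gene and less RNA per cell cannot be told apart.

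**Figure D1:**
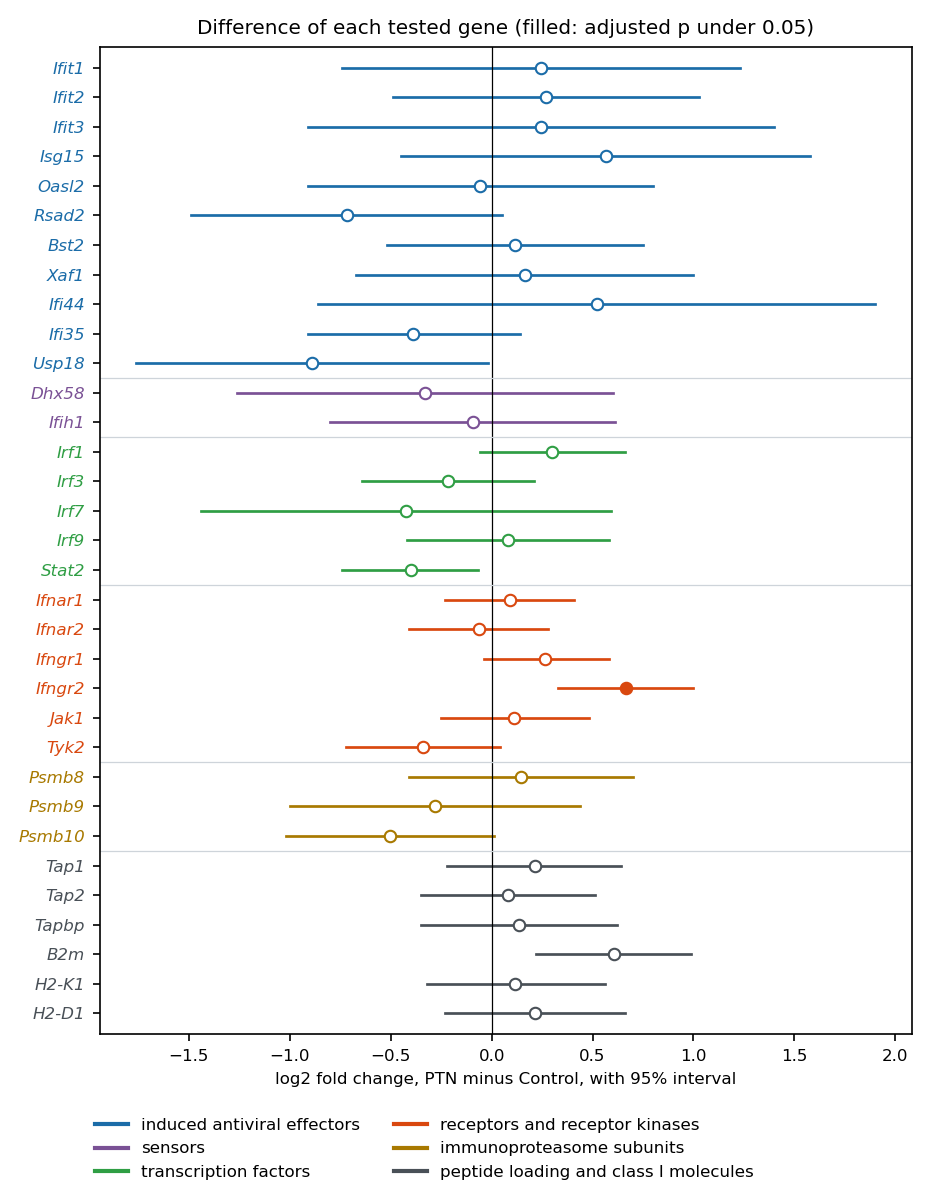
Each circle is the log2 fold change of a tested gene, PTN minus Control, from edgeR's fit (3 libraries a group), and each line its 95% interval; colours give the role and a filled circle an adjusted p under 0.05. Ifngr2 is the only filled circle at 0.66, and the intervals of the antiviral effectors are wide.

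Per length, the module spanned from near 0 to 101 FPKM. The deposited FPKM values, which allow genes of different length to be set side by side, averaged 101 for B2m over the 6 libraries, 50.1 for the class I heavy chain gene H2-K1, 36.9 for the kinase gene Jak1 and 33.0 for the receptor gene Ifnar1. The median over the 33 tested genes was 5.47 FPKM, against 9.95 FPKM over all tested genes. By role the median level was 26.9 FPKM for peptide loading and class I genes, 16.4 for receptors and kinases, 8.28 for immunoproteasome subunits, 5.56 for transcription factors, 1.65 for the tested effectors and 0.782 for the sensors. Transcript levels of the receptor and class I genes were thus well above those of most of the antiviral effectors, in Control as in PTN.

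**Figure D2:**
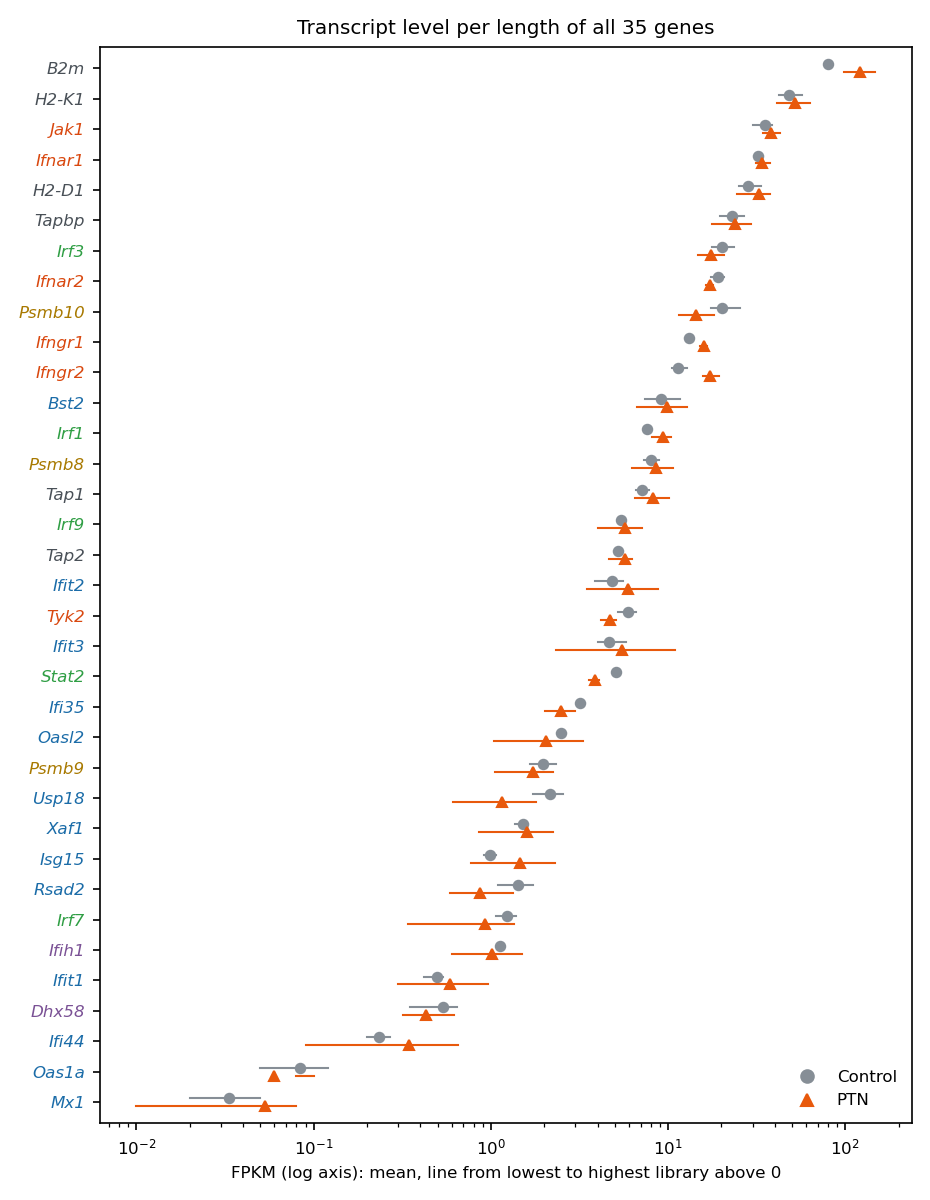
Mean FPKM of each of the 35 genes on a log axis, in Control (circles) and PTN (triangles), with lines from the lowest to the highest library above 0, and gene names coloured by role as in the plot of log2 fold changes. B2m is highest and Oas1a and Mx1 lowest, and the 2 groups lie close together for most genes; Oas1a is listed at 0 in PTN 1, which the mean includes and the line does not.

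The induced antiviral effectors varied widely between the PTN libraries, and none passed the test. Of the 13, Mx1, a dynamin-like GTPase that traps viral nucleocapsids, and Oas1a, an oligoadenylate synthetase, stayed under the test's filter. Mx1 had 1, 2 and 3 counts in the Control libraries and 1, 5 and 5 in PTN. Oas1a had 2, 4 and 5 counts in Control and 0, 4 and 3 in PTN, too few for a comparison. Of the 11 tested effectors, 0 passed in edgeR, DESeq2 or limma-voom, and 1 (Usp18) had an unadjusted p under 0.05. Their log2 fold changes ran from -0.89 to 0.56, with a median of 0.17, 7 above 0 and 4 below.

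ISRE matches were frequent in the promoters of these genes, and the stretches are shown because they carry the element through which interferon is known to act. Promoter windows of 300 bases (250 before to 50 after the start) came from RefSeq on GRCm38.p6, and 31 of the 35 genes had one. The ISRE was searched on both strands as GAAA, any 2 bases and GAAA again; on the other strand both copies read TTTC. It was found for 9 of the 31 genes (29.0%), against 3.99% of all genes with a window in the table: Ifit1, Ifit3, Isg15, Rsad2, Bst2, Oas1a, Ifih1, Stat2 and B2m. Of these, Oas1a was not tested, and none of the other 8 passed. The stretches of 5 effectors, with the match in capitals (overlapping matches as one run), read 5′ to 3′ on the gene's strand:
Ifit1, chr19:34640779-34640800, plus strand, first capital 104 bases before the start: cttcagTTTCACTTTCcagtct
Ifit1, chr19:34640798-34640819, plus strand, first capital 85 bases before the start: tctcagTTTCAGTTTCtcactg
Ifit3, chr19:34583367-34583388, plus strand, first capital 156 bases before the start: ggtaagTTTCACTTTCctcttc
Ifit3, chr19:34583401-34583422, plus strand, first capital 122 bases before the start: agtctgTTTCAGTTTCtacttt
Isg15, chr4:156200869-156200902, minus strand, first capital 78 bases before the start: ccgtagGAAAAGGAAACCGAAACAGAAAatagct
Rsad2, chr12:26456557-26456578, minus strand, first capital 120 bases before the start: tccaacTTTCATTTTCagaaaa
Bst2, chr8:71537581-71537608, minus strand, first capital 130 bases before the start: ttccagGAAAATGAAACTGAAAggctgc

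Among the Ifit genes, Ifit1 encodes a protein that binds viral RNA lacking the host's cap modification. Ifit1 measured 1.10, 1.45 and 1.40 CPM in Control and 0.815, 2.54 and 1.35 CPM in PTN 1, PTN 2 and PTN 3. Ifit2 measured 13.7, 20.9 and 17.4 CPM in Control and 20.5, 30.9 and 11.2 CPM in PTN. Ifit3 had a Control range of 6.93 to 10.1 CPM, and PTN values of 4.11, 19 and 5.62 CPM. In all 3 genes PTN 2 was the highest of the 6 libraries, while PTN 1 and PTN 3 lay within or below the Control range. Ifit3 had fractional counts, since its reads are shared with a near-identical copy, and its value is uncertain on that ground too. The fitted fold changes were 1.19 (95% interval 0.598 to 2.35) for Ifit1, 1.20 (0.712 to 2.04) for Ifit2 and 1.18 (0.531 to 2.64) for Ifit3.

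Isg15, a ubiquitin-like modifier, was also highest in PTN 2 and lowest in PTN 1, while PTN 3 lay above the Control values. It measured 0.676, 0.650 and 0.749 CPM in Control and 0.543, 1.61 and 0.936 CPM in PTN, with a fold change of 1.48 (0.733 to 2.98). Ifi44, a cytoplasmic antiviral protein, had the lowest level of the tested genes and the widest interval, with 0.592, 0.803 and 0.655 CPM in Control and 0.272, 1.87 and 0.832 CPM in PTN. Oasl2, a relative of the oligoadenylate synthetases, measured 2.60, 8.34 and 4.94 CPM in PTN, around Control values of 4.82 to 6.42 CPM. Xaf1, a pro-apoptotic interferon-induced factor, was at 0.956 to 1.26 CPM in Control and at 0.776, 1.56 and 1.30 CPM in PTN. In these 4 genes PTN 2 was the highest and PTN 1 the lowest library, and PTN 3 lay above the Control values in all but Oasl2. They are given by library after their values were seen.

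Bst2, the membrane tether that holds budding virions on the cell, was the effector of highest level at 9.53 FPKM. Its CPM values were 9.26, 5.92 and 6.51 in Control and 5.36, 8.07 and 10.1 in PTN, with no separation of the groups. Ifi35, an interferon-induced leucine zipper protein, had its 3 PTN values of 2.72, 3.30 and 3.85 CPM below the Control values of 4.14, 4.20 and 4.54 CPM. Its difference of 1.31-fold did not pass (adjusted p = 0.297).

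Usp18, the protease that removes ISG15 and damps signalling at IFNAR2, had the smallest p among the effectors. It measured 4.27, 3.86 and 3.04 CPM in Control and 1.09, 1.83 and 3.17 CPM in PTN. The groups overlapped through PTN 3 alone. The log2 fold change was -0.89 ± 0.38 SE (adjusted p = 0.179), and without PTN 3 it was -1.36 with an adjusted p of 0.0314. Rsad2 encodes viperin, a radical SAM enzyme that makes a chain-terminating nucleotide. It measured 4.14, 6.61 and 5.43 CPM in Control and 2.25, 4.99 and 2.60 CPM in PTN, a log2 fold change of -0.72 ± 0.34 SE (adjusted p = 0.212). Here PTN 2 lay within the Control range, and without it the log2 fold change was -1.16 with an adjusted p of 0.0488. Leaving out the PTN library with the gene's highest PTN value thus gave a call for either gene. Over all tested genes, calls numbered 2177 without PTN 3 and 1111 without PTN 2, against 1052 with all 6 libraries.

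**Figure D3:**
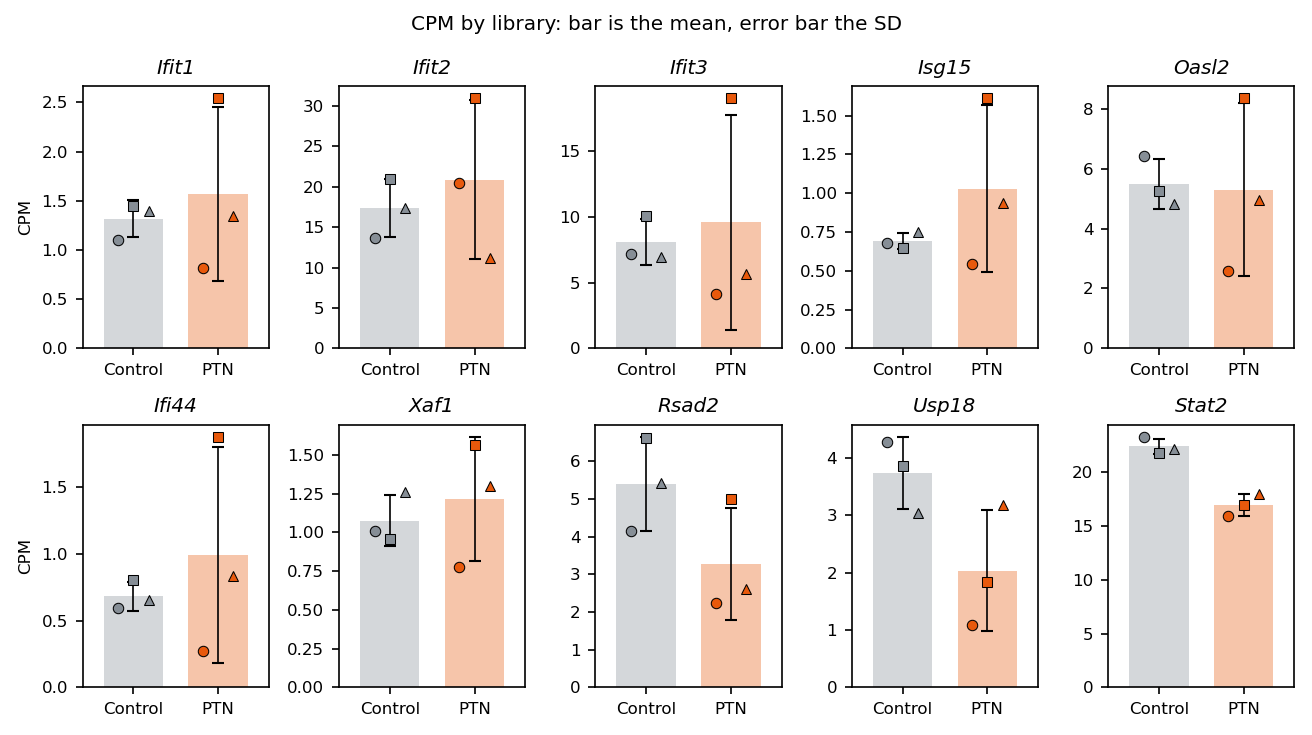
CPM of 9 antiviral effectors and of Stat2 in each library (circle, square and triangle are libraries 1, 2 and 3 of a group), with bars at the group mean and error bars of 1 SD, n = 3. PTN 2 is the highest library for Ifit1, Ifit2, Ifit3, Isg15, Oasl2, Ifi44 and Xaf1, and not for Rsad2 and Usp18, while the PTN values of Stat2 sit together at 15.9 to 18 CPM, below all Control values.

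The PTN libraries differed in order over the tested genes of the module, and the order was not the same in all roles. PTN 1 was the lowest of the 6 libraries for 21 of the 33 tested genes (63.6%) and for 10 of the 11 effectors, while it was the lowest for 21.8% of all tested genes. It was the highest for 0 of the 33, against 22.9% of all tested genes. In other roles PTN 1 was the lowest for 4 of 5 transcription factors, 2 of 3 immunoproteasome subunits and 4 of 6 peptide loading and class I genes. For receptors and kinases it was the lowest for 1 of 6, and for sensors 0 of 2. PTN 2 was the highest for 7 of the 11 effectors and for 11 of the 33 genes, against 17.4% of all tested genes. Elsewhere PTN 2 was the highest for 0 of 5 transcription factors, 0 of 3 immunoproteasome subunits and 1 of 6 receptors and kinases. It was the highest for 1 of 2 sensors and 2 of 6 peptide loading and class I genes. PTN 3 was the highest for 11 of the 33 as well, against 17.9%. The median of the module against the Control mean was -0.36 on the log2 scale in PTN 1, 0.19 in PTN 2 and 0.18 in PTN 3, whereas the Control libraries lay between -0.02 and 0.05. For all tested genes the same medians lay between -0.01 and 0.01 in the 6 libraries. The PTN libraries also differed in the mitochondrial share, at 8.12, 8.1 and 3.97%. The part of that share in the order of the libraries was not tested.

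**Figure D4:**
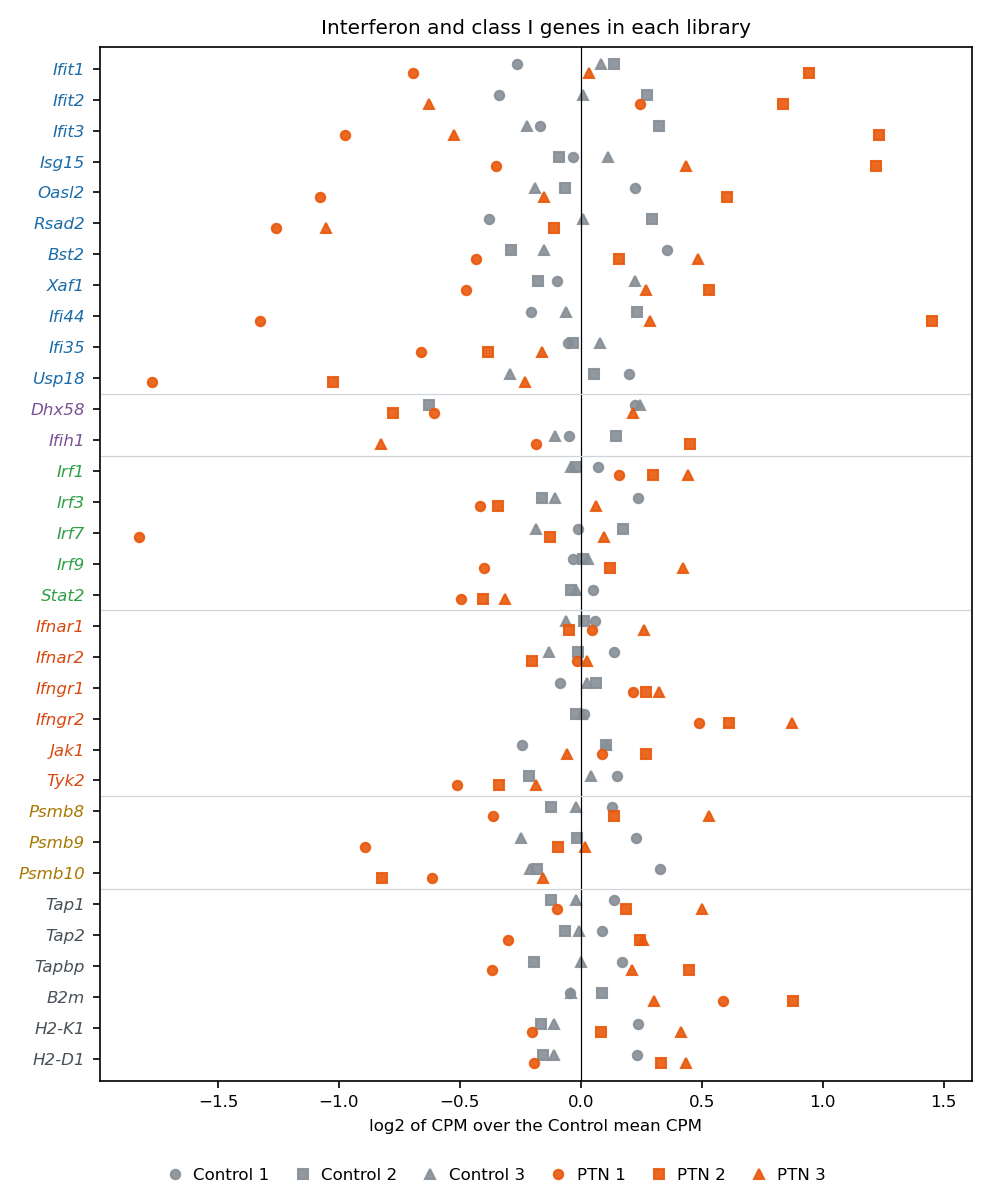
Each point is 1 library's CPM over the Control mean on the log2 scale (grey, Control; orange, PTN; circle, square and triangle are libraries 1, 2 and 3), for the 33 tested genes, with names coloured by role as in the plot of log2 fold changes. PTN 1 is the lowest point for 21 genes, PTN 2 leads most effectors, and the orange points of Ifngr2, B2m, Irf1 and Ifngr1 all lie right of the grey ones.

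Both sensors are RNA helicases of the RIG-I family, and 0 of the 2 passed or had an unadjusted p under 0.05. Ifih1, which encodes MDA5, the sensor of long double-stranded RNA, was at 1.08 FPKM. It measured 5.07, 5.81 and 4.87 CPM in Control and 4.62, 7.18 and 2.96 CPM in PTN, where PTN 2 was above and PTN 3 below all Control values. Dhx58, which encodes the regulatory helicase LGP2, measured 1.52, 0.841 and 1.54 CPM in Control and 0.854, 0.758 and 1.51 CPM in PTN, with overlapping groups.

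None of the 5 transcription factors passed in edgeR, DESeq2 or limma-voom, and 1, Stat2, had an unadjusted p under 0.05. Stat2, the partner of IRF9, measured 23.2, 21.8 and 22.1 CPM in Control and 15.9, 16.9 and 18 CPM in PTN. All PTN values were below all Control values, and the libraries of each group lay close together. The log2 fold change was -0.40 ± 0.15 SE (95% interval -0.74 to -0.07), or 1.32-fold lower, with an adjusted p of 0.13. Leaving out 1 library at a time kept the adjusted p between 0.085 and 0.292. Irf1, the interferon gamma-induced activator of class I and immunoproteasome genes, was on the other side. It measured 14.6, 13.7 and 13.5 CPM in Control and 15.5, 17.1 and 18.9 CPM in PTN, again without overlap, at 1.23-fold (adjusted p = 0.252).

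The promoters of these 2 factors hold one motif each, the ISRE in Stat2 and the GAS in Irf1. The GAS was searched as TTCNNNGAA, which reads the same on both strands. It occurred for 8 of the 31 genes with a window (25.8%), against 9.55% of all genes with a window: Ifit2, Bst2, Oas1a, Ifi35, Irf1, Ifnar1, Ifnar2 and Psmb8. A match describes letters only and is not evidence of binding. The 2 stretches, with the match in capitals, read:
Stat2, chr10:128270270-128270291, plus strand, first capital 222 bases before the start: ccctggTTTCAGTTTCctttcc
Irf1, chr11:53769918-53769938, plus strand, first capital 90 bases before the start: cctgatTTCCCCGAAatgatg

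Irf3, the constitutive factor that the sensors activate by phosphorylation, had the highest level of the 5 at 18.8 FPKM. Its values of 41.2, 31.3 and 32.5 CPM in Control and 26.2, 27.6 and 36.6 CPM in PTN overlapped. Irf7, the factor that amplifies type I interferon production, was near 1 FPKM, and its log2 fold change of -0.42 had an interval from -1.44 to 0.59. PTN 1 held 0.660 CPM of Irf7, while the other 5 libraries held 2.06 to 2.64 CPM. Irf9, the DNA-binding part of the complex with STAT2, had a log2 fold change of 0.08 (-0.42 to 0.58).

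The receptors and receptor kinases were the role with the called gene. Ifngr2 (ENSMUSG00000022965) measured 40.0, 39.1 and 39.7 CPM in Control and 55.5, 60.5 and 72.5 CPM in PTN 1, PTN 2 and PTN 3. The Control values lay within 1 CPM of each other and every PTN value was far above them. The 95% interval of the fold change ran from 1.26 to 2.00. In FPKM the values were 12.85, 10.47 and 10.77 in Control and 15.83, 16.38 and 19.51 in PTN, so the groups did not overlap on that scale either. The call was lost without any one of the Control libraries, with adjusted p of 0.104, 0.125 and 0.155 and fold changes of 1.53 to 1.56, while it held without PTN 1 (0.0465), PTN 2 (0.0473) or PTN 3 (0.0358). Fold changes in these libraries followed gene length, with a median log2 fold change of -0.24 in the shortest eighth of tested genes and 0.31 in the longest. With that trend removed, the log2 fold change of Ifngr2, whose counts and FPKM imply a length of 3570 bases, was 0.57 with an adjusted p of 0.0583. With the replicate number as a block in edgeR's fit, the adjusted p of Ifngr2 was 0.0916.

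The upstream bases of Ifngr2 are shown because it is the called gene. Its window held no match to either motif, which says only that these letters are not there. The 250 bases before the start, on GRCm38.p6, have a GC content of 74% and read:
Ifngr2, chr16:91546809-91547058, plus strand: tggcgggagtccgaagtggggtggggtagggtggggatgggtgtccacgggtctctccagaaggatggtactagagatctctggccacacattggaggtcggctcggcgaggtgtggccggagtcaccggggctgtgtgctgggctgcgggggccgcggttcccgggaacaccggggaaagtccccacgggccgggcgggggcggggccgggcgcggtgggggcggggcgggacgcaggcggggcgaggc

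Ifngr1, the ligand-binding chain of the same receptor, measured 26.3, 29.1 and 28.4 CPM in Control and 32.4, 33.6 and 34.9 CPM in PTN. The groups did not overlap, and the difference of 1.20-fold (0.970 to 1.49) did not pass (adjusted p = 0.241). Per length, Ifngr2 was at 102, 76.4 and 79.7% of Ifngr1 in Control and at 104, 103 and 118% in PTN, where Control 1 and PTN 2 nearly met. The difference between the changes of these chains was not tested.

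The type I receptor chains had overlapping groups. Ifnar1 was at 126, 122 and 116 CPM in Control and 125, 117 and 145 CPM in PTN, with a fold change of 1.07 (0.854 to 1.33). Ifnar2 was at 31.2, 28.2 and 25.9 CPM in Control and 28.1, 24.7 and 28.9 CPM in PTN, 1.04-fold lower, with an interval from 0.755 to 1.21 for PTN over Control. For both chains the interval excluded a 1.5-fold change in either direction. The FPKM of Ifnar2 was 60.9, 61.2 and 57.2% of that of Ifnar1 in Control and 53.6, 52.6 and 47.6% in PTN, lower in all PTN libraries. By counts the groups overlapped in this ratio, with 554 of Ifnar2 and 2472 of Ifnar1 in Control 3 and 725 and 3218 in PTN 1. With the length trend removed, the log2 fold changes were 0.063 for Ifnar2 and -0.023 for Ifnar1. The difference between the changes of these chains was not tested.

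Jak1, the kinase that serves both receptors, had the highest level of this role. Its values of 147, 187 and 187 CPM in Control and 185, 210 and 167 CPM in PTN overlapped, at 1.08-fold (0.840 to 1.39). Tyk2, the kinase bound to IFNAR1, measured 29.7, 23.1 and 27.6 CPM in Control and 18.8, 21.2 and 23.6 CPM in PTN. Its groups touched only between Control 2 and PTN 3, and its log2 fold change of -0.34 ± 0.17 SE did not pass (adjusted p = 0.226).

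Immunoproteasome subunits replace the catalytic subunits of the constitutive proteasome and favour peptides that class I molecules bind. Of the 3 genes, 0 passed in edgeR, DESeq2 or limma-voom, and 0 had an unadjusted p under 0.05. Psmb10, at 17.3 FPKM the highest of them, measured 33.2, 23.4 and 22.9 CPM in Control and 17.3, 15 and 23.8 CPM in PTN, with a log2 fold change of -0.50 ± 0.23 SE (adjusted p = 0.194). Psmb8 was at 7.38 to 8.79 CPM in Control and at 6.25, 8.83 and 11.6 CPM in PTN. Psmb9, with fractional counts, was at 2.25 to 3.13 CPM in Control and 1.44 to 2.70 CPM in PTN.

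The constitutive counterparts Psmb5, Psmb6 and Psmb7 had log2 fold changes of -0.39, -0.35 and -0.34, and 0 of the 3 passed by edgeR, with 1 (Psmb7) at an unadjusted p under 0.05. Per length, Psmb8 was a small share of its counterpart Psmb5, at 7.73, 7.81 and 8.19% in Control and 8.65, 13.6 and 11.4% in PTN. All PTN ratios were above all Control ratios, with PTN 1 close to them. Psmb9 was at 1.11 to 1.34% of Psmb6 in Control and 0.92 to 1.8% in PTN, and Psmb10 at 13.8 to 19.5% of Psmb7 in Control and 12.5 to 16.7% in PTN, both overlapping. These ratios are descriptions without a test. The promoter of Psmb8 holds a GAS match, shown for the subunit whose ratio separated:
Psmb8, chr17:34198092-34198112, plus strand, first capital 97 bases before the start: ccgctgTTCCCAGAAgatgcc

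Peptide loading and class I genes all had a log2 fold change above 0, from 0.08 to 0.61, and 0 of the 6 passed by edgeR, with 1 at an unadjusted p under 0.05. DESeq2 called 1 of them, B2m, and limma-voom 0. B2m measured 66.5, 72.8 and 66.6 CPM in Control and 103, 126 and 84.6 CPM in PTN. The groups did not overlap, and the PTN libraries differed from each other more than the Control libraries did. The log2 fold change was 0.61 ± 0.17 SE, with an interval of 1.16 to 1.99 for the fold change and an adjusted p of 0.0653. It passed with DESeq2's Wald test (adjusted p = 0.017), without PTN 3 (0.0193) and with the length trend removed (0.0419), B2m being a short gene of 860 bases. The B2m promoter holds an ISRE match, shown as that of the highest gene of the module:
B2m, chr2:122147542-122147563, plus strand, first capital 139 bases before the start: gaacatGAAACTGAAAatggga

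The class I heavy chains had smaller fold changes than B2m, and that difference was not tested. H2-K1 measured 89.5, 67.8 and 70.3 CPM in Control and 65.9, 80.5 and 101 CPM in PTN, a fold change of 1.09 (0.801 to 1.47). H2-D1 measured 66.8, 50.9 and 52.6 CPM in Control and 49.7, 71.5 and 76.8 CPM in PTN, a fold change of 1.16 (0.852 to 1.59). In both genes PTN 1 was below all Control values and PTN 3 above them, while in B2m PTN 3 was the lowest PTN library. The FPKM of B2m was 136 to 198% of that of H2-K1 in Control and 155 to 288% in PTN, with overlap. Class I heavy chain genes are close relatives of one another, and counts shared among them are uncertain.

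TAP1 and TAP2 form the peptide transporter and TAPBP, tapasin, bridges it to the class I molecule. Tap1 was at 19.1 to 22.9 CPM in Control and at 19.4, 23.7 and 29.4 CPM in PTN, with a log2 fold change of 0.21 (-0.22 to 0.64). Tap2 had a log2 fold change of 0.08 (-0.35 to 0.51) and Tapbp one of 0.14 (-0.35 to 0.62). Tapbp, the highest of the 3 at 23.5 FPKM, spread from 45.3 CPM in PTN 1 to 79.7 CPM in PTN 2, around Control values of 51.1 to 65.9 CPM. Both Tap1 and Tapbp had fractional counts.

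Other interferon-induced genes, taken from a list of 73 outside the module, included larger changes than those of the module. Of 51 tested, 5 rose and 0 fell, with a median log2 fold change of 0.10, and 11 (7 higher and 4 lower) had an unadjusted p under 0.05. That is 21.6% of the list, against 27.0% of all tested genes, and the calls stand beside 4.93% of all tested genes called higher and 3.06% lower. DESeq2 called 6 higher and 0 lower, and limma-voom 5 higher and 1 lower. Cxcl10, a chemokine that draws activated T cells, measured 4.90, 4.55 and 4.82 CPM in Control and 9.43, 25.0 and 20.6 CPM in PTN, 3.85-fold higher (adjusted p = 0.0113). Gbp4, a guanylate-binding GTPase, measured 0.507, 0.573 and 0.374 CPM in Control and 2.76, 2.14 and 2.13 CPM in PTN, 4.77-fold higher (adjusted p = 0.00672). Both genes had all PTN values far above all Control values.

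Gbp6, of the same GTPase family and with fractional counts, was at 3.72 to 6.46 CPM in Control and 11.9 to 25.9 CPM in PTN, 3.17-fold higher (adjusted p = 0.0243). Ifitm2, a membrane protein that hinders viral fusion, was at 31.6 to 35.5 CPM in Control and 60.0 to 95.1 CPM in PTN, 2.35-fold higher (adjusted p = 0.00685). Socs3, a feedback inhibitor of cytokine receptors, was at 30.9 to 37.1 CPM in Control and 46.6 to 57.6 CPM in PTN, 1.55-fold higher (adjusted p = 0.0379). For Gbp4 and Ifitm2 the call held without any 1 library. The call of Cxcl10 was lost without Control 1 or Control 3 (adjusted p up to 0.0567) and that of Gbp6 without any one of the Control libraries (up to 0.103). That of Socs3 was lost without any 1 library other than PTN 3 (up to 0.144) and with the replicate number as a block (0.12). Gbp4 and Gbp6 had no promoter window, so neither motif could be searched there. The other 3 genes each had a match, an ISRE for Ifitm2 and Cxcl10 and a GAS for Socs3. Their stretches are shown for comparison with those of the uncalled effectors:
Ifitm2, chr7:140955992-140956013, minus strand, first capital 46 bases before the start: caacagGAAAAGGAAAttgcta
Cxcl10, chr5:92349087-92349108, minus strand, first capital 213 bases before the start: gctttgGAAAGTGAAActtacc
Socs3, chr11:117969506-117969526, minus strand, first capital 154 bases before the start: ccagccTTCTTAGAAgggagg

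Class I presentation genes outside the module numbered 22, of which 20 were tested. Of these, 1 rose and 0 fell, with a median log2 fold change of 0.16. At an unadjusted p under 0.05 stood 4 (3 higher and 1 lower), or 20.0%, against 27.0% of all tested genes. Over all tested genes 4.93% were called higher and 3.06% lower. The one called was Nlrc5, the transactivator of class I genes, at 1.61, 1.26 and 1.45 CPM in Control and 3.61, 3.34 and 4.73 CPM in PTN. It was 2.70-fold higher (adjusted p = 0.0169). The call was lost without any one of the Control libraries (adjusted p up to 0.091) and with the length trend removed. DESeq2 called 2 genes of this list, Nlrc5 and H2-Q4. H2-Q4, a non-classical class I gene with fractional counts, was at 5.27 to 7.57 CPM in Control and 8.61 to 17.2 CPM in PTN (adjusted p = 0.057 in edgeR).

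**Figure D5:**
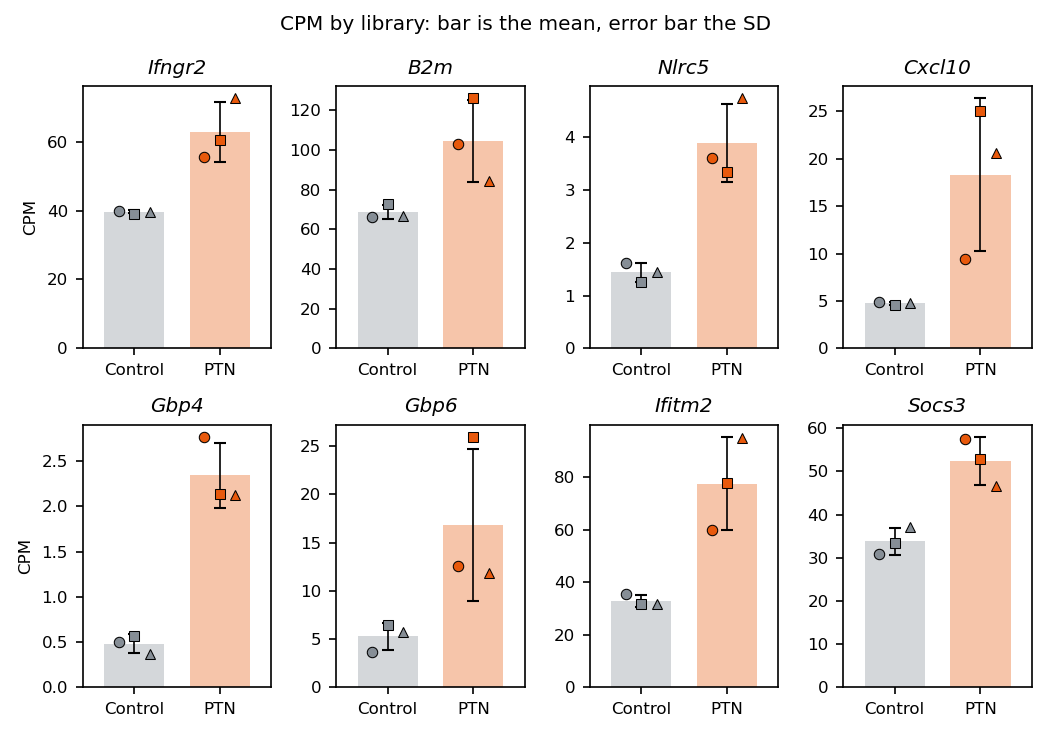
CPM by library of Ifngr2 and B2m and of the 6 genes called outside the module in the interferon-induced and class I lists (circle, square and triangle are libraries 1, 2 and 3 of a group), with bars at the mean and error bars of 1 SD, n = 3. In all 8 panels the PTN values lie above the Control values; B2m did not pass the test, and Cxcl10 and Gbp6 spread most among the PTN libraries.

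The ligands themselves were near or at 0. Of 27 interferon, interferon lambda receptor and nucleic acid sensing genes, 13 were tested and 0 passed in edgeR, DESeq2 or limma-voom. At an unadjusted p under 0.05 stood 3 (23.1%), against 27.0% of all tested genes. The one of smallest p was Ticam1, the adaptor of the double-stranded RNA receptor TLR3, at a log2 fold change of -0.41 (adjusted p = 0.153). Ifna1, Ifna2, Ifna4, Ifnb1, Ifne, Ifng, Ifnl2 and Ifnl3 had 0 counts in all 6 libraries.

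In the STAT and SOCS list, 13 of 14 genes were tested, and 1 rose and 2 fell. At an unadjusted p under 0.05 stood 5 (38.5%), against 27.0% of all tested genes. Over all tested genes 4.93% were called higher and 3.06% lower. Stat5a, a transcription factor of cytokine and growth hormone receptors, measured 25.2, 20.4 and 23.1 CPM in Control and 4.93, 4.5 and 6.81 CPM in PTN, 4.24-fold lower (adjusted p = 0.00187). Stat5b, its close paralogue, measured 55.0, 46.2 and 50.4 CPM in Control and 23.8, 24.6 and 30.4 CPM in PTN, 1.92-fold lower (adjusted p = 0.0101). Both calls held without any 1 library, and both genes had fractional counts, so reads could have been split between them. Jak3, a kinase of cytokine receptors that share the common gamma chain, was 1.90-fold higher with an adjusted p of 0.0498, a call lost without any one of the 6 libraries and with upper-quartile scaling, library totals, limma-voom or the length trend removed.

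Class II genes, which professional antigen-presenting cells express, were low. Of 10, 6 were tested and 0 passed in edgeR, DESeq2 or limma-voom. The median level of the 6 was 0.319 FPKM. At an unadjusted p under 0.05 stood 2 (H2-Ab1 and H2-DMa, both higher), or 33.3%, against 27.0% of all tested genes. The log2 fold change was above 0 for 5 of the 6, with a median of 0.71. PTN values lay wholly above Control for 3 of the 6, as for 15.7% of all tested genes. The list summed to 6.04 to 8.66 CPM in Control and 9.78 to 15.2 CPM in PTN, without overlap. H2-DMa, which edits class II peptides, had the smallest p, at 3.44 to 5.11 CPM in Control and 5.63 to 9.15 CPM in PTN (adjusted p = 0.139).

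Markers of immune cells were at low counts. Of 14 microglia and macrophage markers, 2 were tested (Cd68 and P2ry12) and 0 passed by edgeR, DESeq2 or limma-voom, with 0 at an unadjusted p under 0.05. Summed, the 14 reached 5.2 to 6.61 CPM in Control and 5.01 to 6.4 CPM in PTN, with overlapping groups. The 12 untested markers summed to 12, 28 and 37 counts in Control and 16, 39 and 49 counts in PTN, and the highest single value among them was 16 counts. Aif1 and Tmem119 were at 0 in all PTN libraries and at 3 counts or fewer in Control, and Cx3cr1 was at 4 counts or fewer in every library. Of 10 T, B and dendritic cell markers none was tested, and Cd3e, Cd3g, Ms4a1 and Nkg7 were at 0 throughout.

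Some markers of stromal and vascular cells fell, and others were level or higher. Over all tested genes 3.06% were called lower and 4.93% higher. Of 7 fibroblast and meningeal markers, 5 were tested and 2 fell, Pdgfra (3.90-fold, adjusted p = 0.0145) and Col3a1 (3.44-fold, adjusted p = 0.0391). The list summed to 90.7 to 114 CPM in Control and 17.6 to 39.5 CPM in PTN. Most of that sum was Pdgfra, a receptor also found on oligodendrocyte precursors. Of 8 endothelial and mural markers, 4 were tested and 1 fell, Pdgfrb (5.62-fold, adjusted p = 0.00187). The 8 summed to 11.3 to 14.1 CPM in Control and 8.85 to 12 CPM in PTN. The 4 untested ones went the other way, with sums of 12, 12 and 7 counts in Control and 22, 27 and 22 in PTN. Of the other tested genes of that list, Kdr was at 0.803 to 1.36 CPM in Control and 1.78 to 2.81 CPM in PTN (adjusted p = 0.069 in edgeR, 0.0375 in DESeq2), Pecam1 had a log2 fold change of 0.78 and Rgs5 one of -0.15, neither passing. Among the 9 NSPC markers Vim rose and Hes5 fell. The part of these markers in the values of the module was not tested.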

How the data were processed

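RNA-seq libraries of mouse NSPCs, 3 per group, were prepared from total RNA with a SMARTER mRNA kit, per the labels' protocols. For the aligner, counter, strand setting and genome build the labels name nothing (not given in the sources used here), so no gene coordinates are printed beside those of RefSeq promoters. The authors deposited expected counts per gene, not scaled between libraries, and FPKM values, which divide by gene length and depth. Fractional counts mark reads shared between genes.

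Expected counts were rounded and genes kept by filterByExpr (13161 of 22322). Groups were compared with edgeR 4.0.16 (R 4.3.3): TMM scaling, the quasi-likelihood test, PTN minus Control, no covariate, Benjamini-Hochberg adjustment over all tested genes, calls at an adjusted p under 0.05. The standard error is the log2 fold change over the square root of F. CPM values are TMM-scaled. Alternatives, among them DESeq2 1.42.0 and limma-voom (limma 3.58.1), are given in the closing section. The script was tested on simulated data.

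The genes of the module and the lists were chosen with earlier results of these data known. Named were every gene of the module and, from each list other than the cell type markers, the called genes (up to 6 by smallest p) or the gene of smallest p. Values by library were due for called or non-overlapping genes and for each role's highest and smallest-p gene; those of other genes were added after they were seen. Whether the same replicate number pairs libraries across groups is not stated, and the main fit did not pair them. A few genes of the lists are not reported here and were left out of their counts and sums.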

Additional observations from a re-analysis of the deposited data

How the results depend on the processing

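With 3 libraries a group, intervals of genes near 1 CPM, such as Ifit1 and Isg15, reached past 2-fold. The number of genes of the module called higher, 1, was 2 with DESeq2's Wald test, 2 at an adjusted p under 0.1 and between 0 and 2 when 1 library was left out. The number called lower, 0, lay between 0 and 1 without 1 library. With the replicate number as a block (replicate block), 0 were called higher and 726 of all tested genes were called, against 1052 without it. Whether the numbers pair the libraries is not stated. The deviations of same-numbered libraries from their group means correlated at -0.506, 0.362 and -0.00494, and not every library correlated best with its own number. These correlations cannot decide on pairing, since the deviations of 3 libraries from their own mean sum to 0. Over all tested genes, leaving out 1 library gave 331 to 2177 calls, the lowest without Control 3 and the highest without PTN 3; DESeq2's Wald test gave 1908.

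DESeq2 size factors, upper-quartile scaling, library totals, no filter, a count of 10 in 3 libraries and 1 CPM in 3 libraries (31 genes of the module tested) changed no sign and no call of the module. Ifit3 turned to -0.083 (log2) with limma-voom and to -0.049 with the replicate block. With the length trend removed Ifnar1 turned to -0.023, Ifnar2 to 0.063 and Jak1 to -0.078. Without 1 library, the log2 fold change crossed 0 for genes with no call: Ifit1 -0.297 to 0.567, Ifit2 -0.126 to 0.566, Ifit3 -0.738 to 0.610, Oasl2 -0.555 to 0.276, Bst2 -0.109 to 0.333, Xaf1 -0.066 to 0.413, Ifi44 -0.356 to 0.986, Ifih1 -0.462 to 0.164, Irf9 -0.118 to 0.276, Ifnar1 -0.000 to 0.155, Ifnar2 -0.167 to 0.003, Jak1 -0.022 to 0.188, Psmb8 -0.092 to 0.347, Tap2 -0.011 to 0.246, Tapbp -0.050 to 0.334 and H2-K1 -0.052 to 0.257.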
